A study of Oryctolagus cuniculus with 12 samples.

Results

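The 10 genes described here encode matricellular and provisional matrix proteins that are laid down or secreted in a wound: TNC, THBS1, THBS2, POSTN, CTGF, CYR61, SPARC, SPP1, FN1 and CTHRC1. They were chosen by their symbols in the authors' gene table, where each symbol named 1 of 20566 genes. All 10 passed the filter on low counts, as did 14835 genes in all. RNA was sequenced from conjunctiva of female rabbits of the Japanese White strain, 12 to 14 weeks old, in 12 libraries. In the operated right eyes, trabeculectomy was done with mitomycin C, an alkylating agent used against scarring, and conjunctiva with the filtration bleb was taken at 3 hours (group TL3h), 3 days (TL3d) or 14 days (TL14d). Trabeculectomy opens a drain under a flap of sclera, and the bleb is the blister of conjunctiva into which aqueous humor drains. Per the study's methods, operated eyes also received a conjunctival betamethasone injection and an ointment of erythromycin and colistin at the end of surgery, so the operation, mitomycin C and the steroid cannot be told apart in any comparison with controls. The control group was conjunctiva of left eyes, for which the labels give no operation. Each group held 3 libraries. The sources used here do not tell which control and operated eyes come from 1 animal, or when the control eyes were sampled.

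Matricellular proteins are secreted into the extracellular matrix, where they regulate how cells attach, move and respond to growth factors rather than bearing load. Most are scarce in resting adult tissue and appear in wounds and scars. Fibronectin (FN1) forms the provisional matrix on which cells migrate, and tenascin-C (TNC), thrombospondins (THBS1, THBS2), periostin (POSTN), SPARC, osteopontin (SPP1) and the CCN proteins CTGF and CYR61 act on or through that matrix, largely by binding integrins, growth factors or collagen. In filtration surgery, scarring of the conjunctiva and the tissue under it is the usual way in which a bleb fails.

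Libraries held between 27111276 and 38591374 counts. Levels are given as CPM, counts scaled to a common library size adjusted by TMM, and the floor of 3 counts lay between 0.0712 and 0.124 CPM. A gene was called where its adjusted p, from edgeR's quasi-likelihood test over all 14835 genes, was at most 0.05. Several libraries stood apart. TL14d replicate 1 correlated on average more closely with the control libraries (r = 0.952 across 13253 genes) than with the others of its own group (r = 0.864). Whether its label is right could not be checked with the sources used here, so all values at 14 days rest on that label. Fold changes of the 10 genes at 14 days are given with and without this library, and list counts with and without it and control replicate 3. In control replicate 3 the summed level of 12 fibroblast markers was 80961 CPM, against 12989 and 36775 CPM in the other control libraries. In TL3d replicate 1 that sum was 1544 CPM, against 12245 and 66547 CPM in the rest of its group. In the tissue as a whole, fewer cells of a type and less RNA per cell cannot be told apart. Keratin and conjunctival markers were present in every library, with the summed level of 9 conjunctival epithelial markers between 7359 and 19536 CPM. KRT13, KRT14, KRT19 and MUC5AC were not analysed here.

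At 3 hours, 3 of the 10 genes rose above control (THBS1, CTGF and CYR61) and SPP1 fell. These 4 of 10 compare with 45.4% of all genes called in that comparison, of which 23.2% rose and 22.2% fell. By TMM-scaled CPM, every TL3h library lay above every control library for 8 of the 10 genes, where 28.9% of all genes did so, and below for SPP1, where 28.3% did so. SPARC alone overlapped, so 9 of 10 did not overlap, against 57.3% of all genes. Part of this rests on TMM. As a percentage of library counts, without TMM, THBS2, POSTN and CTHRC1 overlapped with control as well. For THBS2, TL3h replicate 1 held 0.0183% and control replicate 3 held 0.0204%. The share of all genes that overlap on that scale was not computed. At an unadjusted p under 0.05 stood 5 of the 10 (TNC and the 4 called), against 52.3% of all genes. DESeq2's Wald test and edgeR's exact test each called 5, the same 4 and TNC, where they called 50.8% and 43.7% of all genes. The median log2 fold change of the 10 genes was 1.72, against 0.0238 over all genes tested.

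At 3 days, TNC alone was called, and it rose. That is 1 of 10, against 17.6% of all genes called. Every TL3d library lay above every control library for TNC, THBS1 and FN1, and 23.8% of all genes did so. None had every library below, where 21.7% of all genes stood, and the other 7 overlapped, while 45.5% of all genes did not overlap. At an unadjusted p under 0.05 stood 5 of the 10 (TNC, THBS1, SPP1, FN1 and CTHRC1), against 36.2% of all genes. DESeq2's Wald test called these 5, where it called 30.1% of all genes, and the exact test called TNC and THBS1, where it called 20.4%. The median log2 fold change of the 10 genes was 1.95, against -0.00182 over all genes.

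At 14 days, none of the 10 was called by edgeR's quasi-likelihood test, as was none of all 14835 genes (0%). At an unadjusted p under 0.05 stood 10.4% of all genes, among them TNC, THBS1, CTGF, FN1 and CTHRC1. DESeq2's Wald test called those same 5, where it called 2.47% of all genes, and edgeR's exact test called TNC, THBS1 and FN1, where it called 0.984%. Without TL14d replicate 1, TNC, THBS1, CTGF and FN1 were called, as were 4.74% of all genes, and without TL14d replicate 2 the adjusted p of each of the 10 was between 0.978 and 0.9996. CTGF was the only one of the 10 with every TL14d library above every control library, where 6.03% of all genes stood, and none had every library below, where 5.11% stood. In all, 11.1% of genes did not overlap. The 3 comparisons with control share the same control libraries.

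Between the time points, none of the 10 was called from TL3h to TL3d, where 37.3% of all genes were (18.4% higher and 19.0% lower at TL3d), or from TL3d to TL14d, where 2.24% were (0.647% higher and 1.59% lower at TL14d). At an unadjusted p under 0.05 stood TNC and CTGF in the first of these comparisons (47.5% of all genes) and SPP1 in the second (22.6%). DESeq2 called 3 of the 10 in the first comparison and 1 in the second, where it called 44.7% and 12.5% of all genes, and edgeR's exact test called 1 in each, where it called 36.6% and 6.92%. Between TL3h and TL3d the libraries did not overlap for 6 of the 10, with TNC above at TL3d (26.2% of all genes) and THBS1, POSTN, CTGF, CYR61 and SPARC below (28.5%), while 54.7% of all genes did not overlap. Between TL3d and TL14d they did not overlap for SPP1 alone, which lay above at TL14d (13.4% of all genes, with 14.0% below and 27.4% in all). Scaling by library size alone, in place of TMM, moved the median over all genes at 3 hours from 0.0238 to -0.473 on the log2 scale. The same genes among the 10 were called at 3 hours under both scalings. With 3 libraries against 3 the smallest two-sided p of an exact permutation test is 0.1, so single genes were tested only in the fit across all genes. The plot of levels by library shows how the spread within a group compares with the change between groups.

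**Figure D1:**
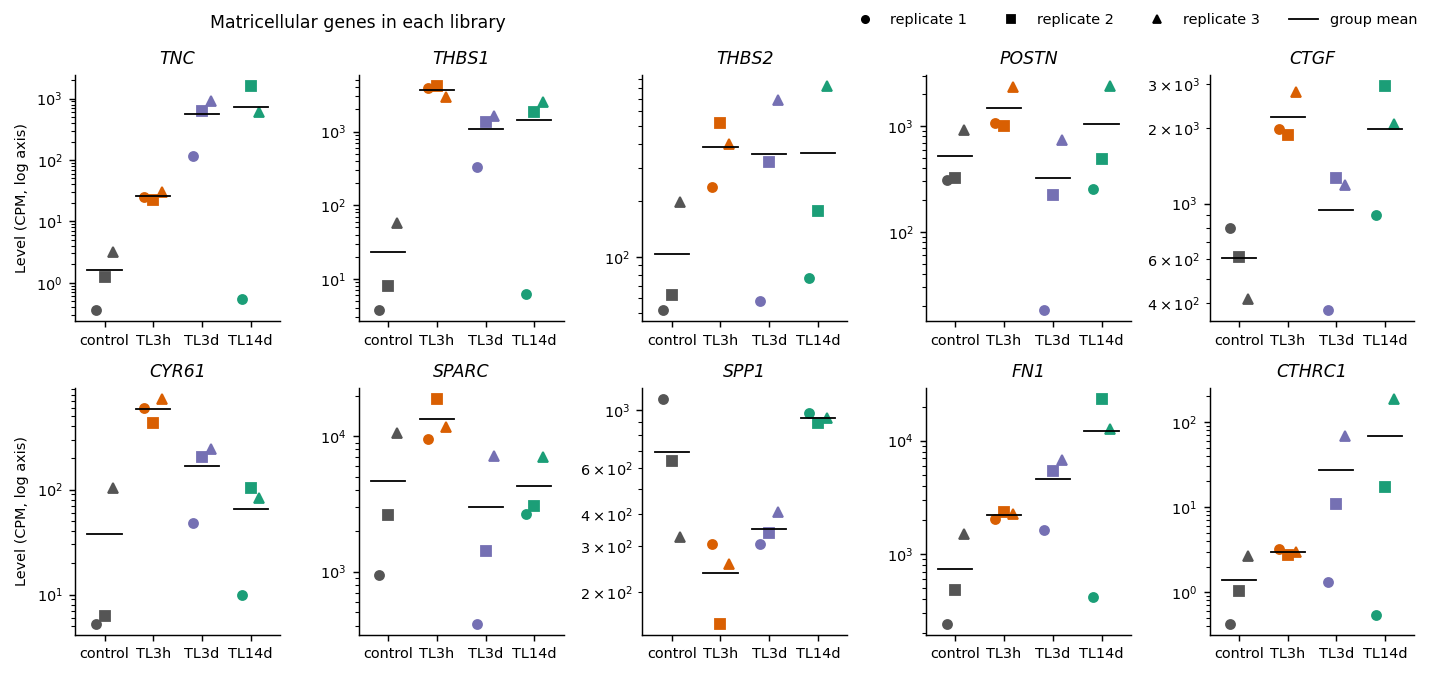
Level of each of the 10 genes in each of the 12 libraries, in CPM on a log axis, by group; symbols mark the replicate number and the bar the group mean. THBS1 lay between 2986 and 4181 CPM in the TL3h libraries and between 3.75 and 58.0 CPM in the control libraries, and TL14d replicate 1 lay with the controls for TNC, THBS1, FN1 and CTHRC1.

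The thrombospondins are trimeric glycoproteins that bind CD36, CD47 and integrins and restrain the growth of vessels, and thrombospondin 1 also activates latent TGF-beta. THBS1 (OryCun2.0 chromosome 17, 32567508 to 32583128, minus strand) stood at 3.75, 7.93 and 58.0 CPM in the control libraries. It stood at 3893, 4181 and 2986 CPM at 3 hours, at 333, 1334 and 1626 CPM at 3 days, and at 6.15, 1819.5 and 2507 CPM at 14 days. All 6 libraries of TL3h and TL3d lay above every control library, and the TL3h values lay within 1.40-fold of each other. At 14 days, replicate 1 lay between the control values and the other libraries lay far above the highest control. THBS1 rose at 3 hours with a log2 fold change of 7.31 ± 1.86 (SE, adjusted p = 0.00941), and this call held under all 20 alternatives, with values from 6.80 to 9.25 (9.25 without control replicate 3). At 3 days its log2 fold change was 5.56 ± 1.72 with an adjusted p of 0.05004, just over the threshold. It was called under 8 of 20 alternatives, over which the log2 fold change ran from 5.06 to 7.54, highest without control replicate 3. Adjusted p values were 0.0422 without control replicate 3 and 0.00843 without TL14d replicate 1, but 0.134 and 0.143 without control replicates 1 and 2. At 14 days the log2 fold change was 5.96 ± 1.75 (adjusted p = 0.346), and without TL14d replicate 1 it was 6.54 (adjusted p = 0.0216).

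THBS2, the second thrombospondin, lies on unplaced sequence and varied far less. It stood at 51.7, 62.7 and 197 CPM in control, 235, 521 and 400.1 CPM at 3 hours, 57.9, 323 and 690.5 CPM at 3 days, and 77.1, 177 and 824 CPM at 14 days. The TL3h libraries lay above the controls, and at both later times the groups overlapped. Its log2 fold changes of 1.89 ± 1.001, 1.78 ± 0.998 and 1.79 ± 0.998 did not pass the test (adjusted p = 0.152, 0.222 and 0.567), the value at 3 days was 2.63 without control replicate 3 and 0.88 without TL3d replicate 3, and that at 14 days was 2.27 without TL14d replicate 1 and 0.29 without TL14d replicate 3.

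CTGF and CYR61 are CCN proteins, which bind integrins and heparan sulfate and whose genes are standard targets of YAP with TEAD and of SRF. CTGF (chromosome 12, 122183019 to 122186016, minus strand) stood at 795, 610.0 and 417 CPM in the control libraries. Its levels were 1988, 1885 and 2776 CPM at 3 hours, 375, 1261 and 1186 CPM at 3 days, and 903, 2953 and 2075 CPM at 14 days. Libraries of TL3h and TL14d lay above all controls, and TL3d replicate 1 lay below all of them. CTGF rose at 3 hours by a log2 fold change of 1.87 ± 0.52 (adjusted p = 0.0145); the adjusted p was 0.0536 without control replicate 3 and 0.0529 without TL3h replicate 3. At 3 and 14 days the log2 fold changes were 0.63 ± 0.51 (adjusted p = 0.394) and 1.70 ± 0.52 (adjusted p = 0.358), the latter 2.05 (adjusted p = 0.0479) without TL14d replicate 1 and 1.29 (adjusted p = 0.978) without TL14d replicate 2.

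CYR61 (chromosome 13, 79255269 to 79258198, minus strand) stood at 5.29, 6.20 and 103 CPM in control. It stood at 599, 433 and 729.6 CPM at 3 hours, 48.3, 205 and 245 CPM at 3 days, and 9.82, 104 and 82.9 CPM at 14 days. Control replicate 3 stood far above the other controls and overlapped the libraries of TL3d and TL14d but not those of TL3h. CYR61 rose at 3 hours by a log2 fold change of 3.94 ± 1.28 (adjusted p = 0.0284). Without control replicate 3 the log2 fold change was 6.62 (adjusted p = 0.00200), while leaving out control replicate 1, control replicate 2, TL3h replicate 1 or TL3h replicate 3 gave adjusted p values between 0.0530 and 0.0780. The log2 fold change was 2.12 ± 1.18 at 3 days (adjusted p = 0.219) and 0.78 ± 1.14 at 14 days (adjusted p = 0.841). Without control replicate 3 the value at 3 days was 4.84 (adjusted p = 0.0257) and that at 14 days 3.50 (adjusted p = 0.432), and without TL14d replicate 1 the latter was 1.29 (adjusted p = 0.536). The lowest values over the alternatives were 1.61 at 3 days and 0.26 at 14 days. Both CCN genes rose at 3 hours, by 3.65-fold for CTGF and 15.4-fold for CYR61 in the fit.

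Tenascin-C is a hexameric glycoprotein of wound edges and tumour stroma that loosens cell attachment to fibronectin. TNC lies on unplaced sequence and was low in control, at 0.356, 1.25 and 3.16 CPM, from 15 to 126 counts. It stood at 24.5, 22.4 and 30.6 CPM at 3 hours, 115, 630.4 and 929 CPM at 3 days, and 0.538, 1622 and 609.6 CPM at 14 days. Each TL3h library lay above each control and each TL3d library above each TL3h library, whereas TL14d replicate 1 lay within the control range. TNC rose at 3 days by a log2 fold change of 8.46 ± 2.10 (adjusted p = 0.0263). This call held with TL14d replicate 1 left out (adjusted p = 0.00239) and with control replicate 3 left out (log2 fold change 9.43, adjusted p = 0.0468), and it was lost when control replicate 1 or 2 or TL3d replicate 1 or 2 was left out, with adjusted p values between 0.0561 and 0.0918. At 3 hours the log2 fold change was 4.02 ± 1.73 (adjusted p = 0.0835; 0.00600 without TL14d replicate 1 and 0.204 without control replicate 1). From 3 hours to 3 days it was 4.43 ± 1.74 (adjusted p = 0.0695; 0.00483 without TL14d replicate 1 and 0.164 without TL3h replicate 2). At 14 days it was 8.87 ± 2.14 (adjusted p = 0.346), 9.45 without TL14d replicate 1 (adjusted p = 0.00670) and 7.58 without TL14d replicate 2 (adjusted p = 0.978).

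Fibronectin binds integrins, collagen and fibrin and is made both by the liver for plasma and by cells of the tissue. FN1 (chromosome 7, 156703386 to 156770768, minus strand) stood at 244, 479 and 1500.5 CPM in control. It stood at 2039, 2352 and 2269 CPM at 3 hours, 1641, 5356 and 6687 CPM at 3 days, and 415, 23263 and 12696 CPM at 14 days. All libraries of TL3h and TL3d lay above the controls, and the 2 highest values of FN1 were both at 14 days, where replicate 1 fell inside the control range. Its log2 fold changes were 1.58 ± 1.08 at 3 hours, 2.62 ± 1.12 at 3 days and 4.03 ± 1.19 at 14 days, none of which passed the test (adjusted p = 0.264, 0.122 and 0.351). Without TL14d replicate 1 the values at 3 and 14 days were 2.62 (adjusted p = 0.0274) and 4.60 (adjusted p = 0.0199). Without control replicate 1 the value at 3 days was 2.20 (adjusted p = 0.278), and without TL14d replicate 2 that at 14 days was 3.14 (adjusted p = 0.978).

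CTHRC1, a secreted protein with a short collagen repeat that is made by activated fibroblasts, lies on chromosome 3 (118775500 to 118791597, plus strand). CTHRC1 stood at 0.427, 1.03 and 2.66 CPM in control and at 3.19, 2.70 and 3.00 CPM at 3 hours. It then stood at 1.32, 10.9 and 68.6 CPM at 3 days and at 0.538, 17.3 and 186 CPM at 14 days. The values at 3 days spanned 51.8-fold within the group, and those at 14 days spanned 346-fold. Its log2 fold changes of 1.11 ± 1.64, 4.29 ± 1.79 and 5.63 ± 1.90 did not pass the test (adjusted p = 0.616, 0.113 and 0.391), and without TL14d replicate 1 the value at 14 days was 6.21 (adjusted p = 0.0583). Without replicate 3 of the operated group the value was 2.15 at 3 days (adjusted p = 0.368) and 2.70 at 14 days (adjusted p = 0.722).

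SPARC and periostin bind collagen and take part in its assembly into fibrils, and both are products of fibroblasts. SPARC (chromosome 3, 33117409 to 33137847, minus strand) stood at 947, 2645 and 10544 CPM in control. It stood at 9548, 18872 and 11704 CPM at 3 hours, 414, 1418 and 7142 CPM at 3 days, and 2678, 3053 and 7099 CPM at 14 days. Control replicate 3 lay within the TL3h range, and the controls overlapped every operated group. The log2 fold changes of 1.51 ± 1.03, -0.66 ± 1.02 and -0.14 ± 1.01 did not pass the test (adjusted p = 0.266, 0.678 and 0.972), and without control replicate 3 they were 2.85, 0.72 and 1.24 (adjusted p = 0.0634, 0.641 and 0.672). Without TL3d replicate 3 the value at 3 days was -2.36 (adjusted p = 0.128), and without TL14d replicates 1 and 3 in turn that at 14 days was 0.11 and -0.72.

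POSTN lies on unplaced sequence and stood at 310.2, 322 and 925 CPM in control. It stood at 1082, 998 and 2365 CPM at 3 hours, 18.1, 221 and 734 CPM at 3 days, and 252, 491 and 2417 CPM at 14 days. The TL3h libraries lay above all controls and above all TL3d libraries, and TL3d replicate 1 was the lowest of the 12. The log2 fold changes against control were 1.51 ± 1.14, -0.68 ± 1.12 and 1.02 ± 1.12 (adjusted p = 0.310, 0.696 and 0.776), the last 1.49 without TL14d replicate 1 and -0.48 without TL14d replicate 3, and the log2 fold change from TL3h to TL3d was -2.19 ± 1.16 (adjusted p = 0.162).

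Osteopontin, the product of SPP1, is an integrin and CD44 ligand made by macrophages, epithelia and bone cells. SPP1 (chromosome 15, 62156416 to 62163765, minus strand) stood at 1103, 639.7 and 327 CPM in control. It stood at 307, 152 and 256 CPM at 3 hours, 305, 338 and 408 CPM at 3 days, and 975, 890.4 and 935 CPM at 14 days. Every TL3h library lay below every control, with the nearest pair at 307 and 327 CPM, and the TL14d libraries lay within 1.10-fold of each other and above all libraries of TL3h and TL3d. SPP1 fell by 1.53 ± 0.39 on the log2 scale at 3 hours (adjusted p = 0.00966), a call that held under all 20 alternatives. At 3 days the log2 fold change was -0.98 ± 0.39 (adjusted p = 0.1001; -1.33 and 0.0281 without control replicate 3, -0.46 and 0.386 without control replicate 1), and at 14 days it was 0.44 ± 0.39 (adjusted p = 0.719; 0.40 and 0.627 without TL14d replicate 1). From TL3d to TL14d the log2 fold change was 1.41 ± 0.39 (adjusted p = 0.0827; 0.0368 without control replicate 3 and 0.261 without TL3d replicate 1). SPP1 was the only one of the 10 genes for which TL14d replicate 1 was not the lowest library of its group.

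Of values not called, several moved widely with the alternatives. At 3 hours the log2 fold change ranged from 3.54 to 4.96 for TNC, 1.13 to 2.57 for FN1, 0.65 to 2.17 for CTHRC1, 0.96 to 2.17 for POSTN and 1.43 to 2.70 for THBS2. At 3 days it ranged from 2.20 to 3.64 for FN1, 2.15 to 5.19 for CTHRC1, 0.36 to 1.01 for CTGF and -2.12 to 0.0195 for POSTN. The plot of fitted changes sets the 10 genes side by side.

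**Figure D2:**
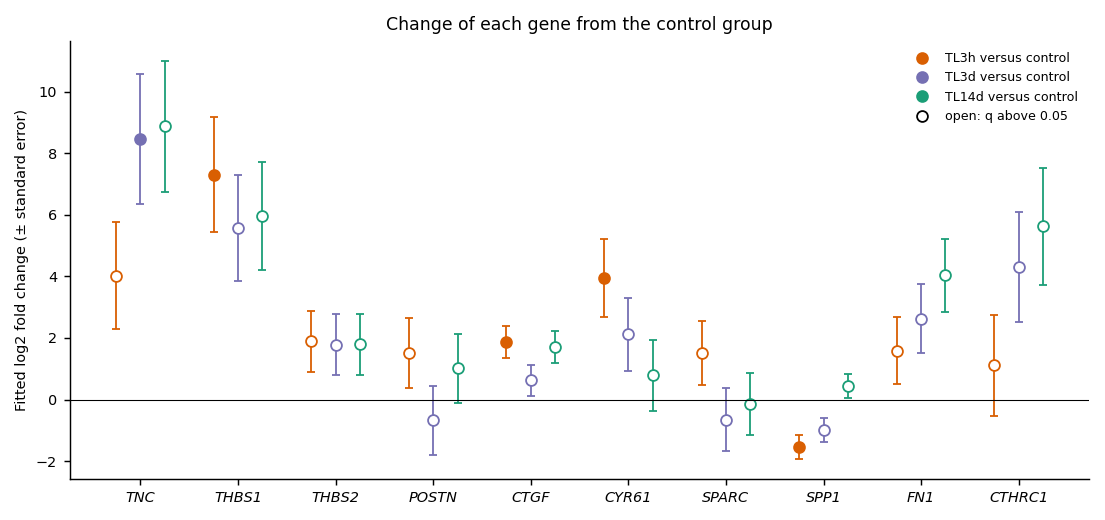
Fitted log2 fold change of each gene from control at the 3 time points, with bars of 1 standard error; filled points passed an adjusted p of 0.05 and open points did not. THBS1, CTGF, CYR61 and SPP1 at 3 hours and TNC at 3 days are filled, and the largest values, 8.87 and 8.46, are those of TNC at 14 and 3 days.

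Levels were compared between genes only in the authors' FPKM, which are divided by transcript length. SPARC had the highest mean FPKM in every group, from 1403 at 3 days to 4551 at 3 hours. In control, SPARC (2177 FPKM) was followed by SPP1 (492 FPKM), CTGF (274 FPKM), POSTN (103 FPKM) and FN1 (83.7 FPKM), and the lowest were THBS1 (3.62 FPKM), CTHRC1 (1.69 FPKM) and TNC (0.174 FPKM). At 3 hours the order was SPARC, CTGF (719 FPKM), THBS1 (426 FPKM) and POSTN (216 FPKM), and SPP1 stood seventh with 122 FPKM. SPARC, CTGF, THBS1 and POSTN did not overlap their neighbours down to POSTN at 3 hours, while POSTN and CYR61, and CYR61 and FN1, did. At 3 and 14 days FN1 stood second by its mean, with 528 and 1416 FPKM (2100.5 FPKM at 14 days without TL14d replicate 1, which left the order of the 10 by their means as it was). At 3 days every gene overlapped the next in the order, and at 14 days all did except SPP1 and THBS1.

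Together the 10 genes took 0.392 to 1.45% of all counts in the control libraries, 1.53 to 2.26% at 3 hours, 0.362 to 2.06% at 3 days and 0.583 to 3.75% at 14 days. Since counts are not divided by length, these shares describe the libraries and not the relative number of transcripts. SPARC supplied 48.4 to 64.2% of the counts of the 10 genes at 3 hours, and FN1 supplied 67.6 and 43.1% in TL14d replicates 2 and 3. In TL14d replicate 1 FN1 supplied 7.81%, against 7.06 to 10.7% in the controls.

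**Figure D3:**
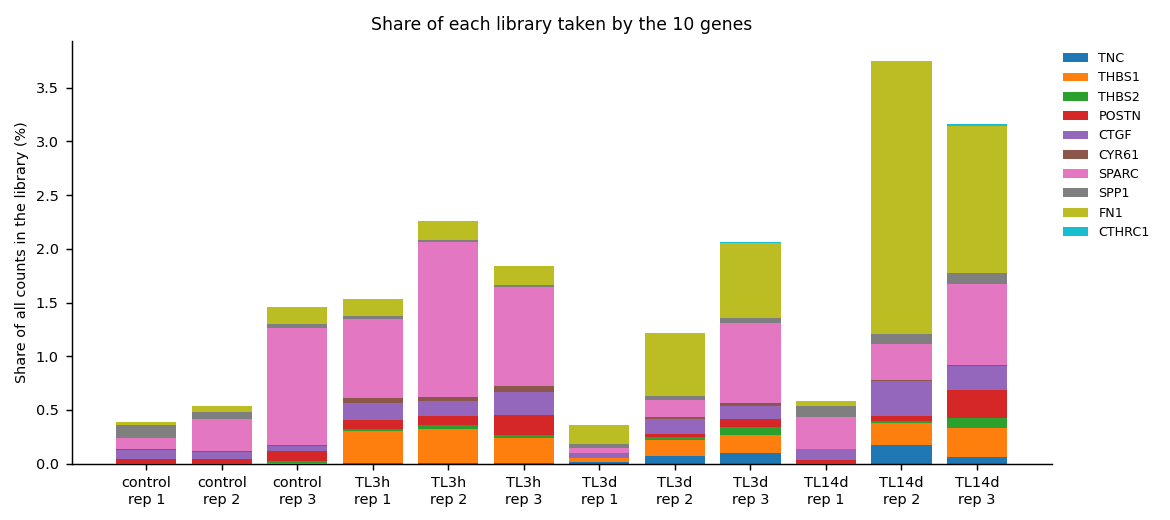
Share of all counts in each library taken by the 10 genes, in percent, stacked by gene. The stack is highest in TL14d replicate 2 at 3.75%, mostly FN1, and TL14d replicate 1 at 0.583% stands within the control range of 0.392 to 1.45%.

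FN1 has 17 transcripts in the authors' transcript table, POSTN 8, TNC 7 and SPARC 4, and the other 6 genes have 1 each. Of their transcripts 42 were tested. At 3 hours 3 rose and 1 fell, those of THBS1, CTGF, CYR61 and SPP1, where 28.3% of all 26082 transcripts tested were called. At 3 days 1 rose, a minor FN1 transcript (XM_017343100.1, adjusted p = 0.0438) with 0.5% of FN1 counts in control and 2.52% at 3 days, where 5.13% of all transcripts were called. This transcript, named for its call after its value was seen, was not called when any 1 of 8 libraries was left out (control replicates 1 and 2, and each library of TL3h and TL3d), while 18 transcripts of the 10 genes and 2920 of all were called without TL14d replicate 1. At 14 days none was called, and none of all transcripts (0%). How the authors divided reads between transcripts that share most of their sequence is an estimate of their software, so these shares carry an error that the files do not give.

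In FN1, 5 transcripts held at least 10% of the gene's counts in 1 library or more, and none of them was called. XM_017343095.1 held 47.8 to 50% of FN1 counts in control and 31.4 to 35.4% at 3 days, and XM_017343094.1 held 14 to 14.4% and 11.9 to 12.4%. XM_008259120.2 held 5.62 to 6.06% in control and 10.7 to 16.9% at 3 days, XM_017343089.1 held 4.95 to 6.20% and 2.04 to 4.81%, and XM_017343087.1 held 1.92 to 2.67% and 3.05 to 4.24%. Shares of the 5 did not overlap between control and 3 days, and they were not tested. How often transcript shares do so over all genes was not computed, and shares within 1 gene depend on each other.

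Fibronectin transcripts are known to differ by exons that are included or skipped, and tissue fibronectin of wounds holds more of them than plasma fibronectin. Sorted by length, a choice made after the values were seen, 3 FN1 transcripts of 7904 to 7979 bases held 2.61 to 3.56% of FN1 counts in control, 5.68 to 6.86% at 3 hours and 4.53 to 6.17% at 3 days. At 14 days they held 3.09, 22.9 and 13.3%. The 8 transcripts of 7073 to 7436 bases held 80.6 to 83.3% in control, 72.9 to 75.7% at 3 hours and 64.9 to 71.0% at 3 days, and 81.9, 51.3 and 61.2% at 14 days. TL14d replicate 1 thus stood with the controls in transcript shares as it did in the level of FN1, and all other operated libraries stood above the controls for the longest class and below for the shortest. The shares of length classes were not tested or set beside those of other genes, and which exons these transcripts contain was not read from any file used here.

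**Figure D4:**
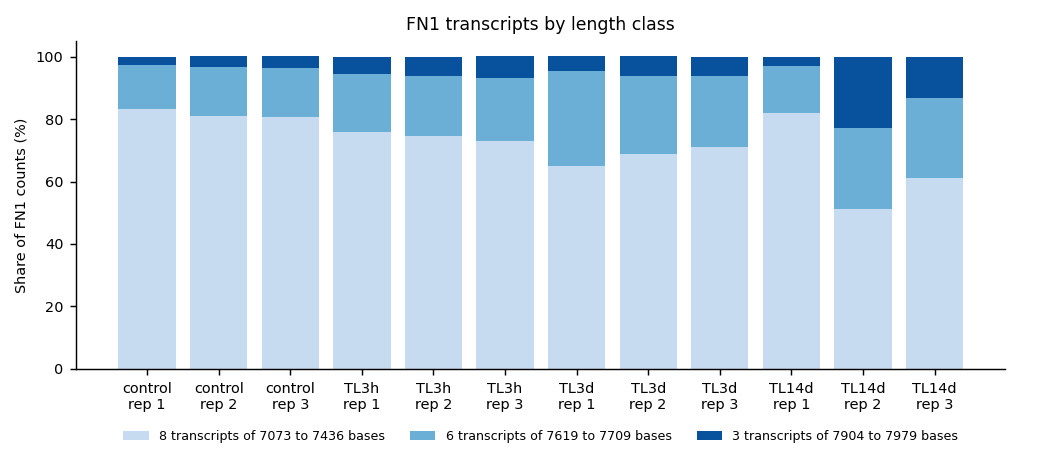
Share of FN1 counts, in percent, in 3 classes of transcript length for each library. The longest class, of 3 transcripts, takes 2.61 to 3.56% in the control libraries and 22.9 and 13.3% in TL14d replicates 2 and 3.

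In POSTN, 6 transcripts held at least 10% of the gene's counts in 1 library or more, and none of them was called at any time. XM_002721083.3 held 25 to 27.9% of POSTN counts in control and 25.6 to 31.3% at 3 hours, against 9.80 to 12.5% at 3 days. XM_008274491.2 held 14.4 to 15.3% in control and 4.92 to 8.29% at 3 days, and XM_002721082.3 held 6.58 to 8.64% and 16 to 24.8%. The ranges at 3 days and in control did not overlap for these 3. They overlapped for XM_002721084.3 (20.1 to 24.5% and 20.2 to 30.4%), XM_017350617.1 (7.64 to 17.4% and 16.7 to 23.2%) and XM_002721081.3 (10.7 to 17.3% and 11 to 15.7%). These shares were not tested, and how often transcript shares fail to overlap over all genes was not computed. In TNC, transcript shares in control rest on 15 to 126 counts and ranged from 1.84 to 100% for XM_017350093.1, so they set no baseline. Of the 4 TNC transcripts with at least 10% in a library, XM_008273390.2 held 48.3 to 67.8% of TNC counts at 3 days, XM_017350093.1 held 13.7 to 19.6%, XM_008273388.2 held 12 to 18.8% and XM_008273389.2 held 0.719 to 3.28%. SPARC counts lay almost wholly in 1 transcript of 2033 bases (XM_017341204.1), with mean shares of 91.7 to 92.9% in the 4 groups.

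The 10 genes differed in how far they moved with markers of fibroblasts. The sum of 12 fibroblast markers (PDGFRA, PDGFRB, DCN, LUM, COL1A1, COL1A2, COL3A1, COL6A3, DPT, FBLN1, THY1 and MFAP5) ranged from 12989 to 80961 CPM in control, 108672 to 132585 CPM at 3 hours, 1544 to 66547 CPM at 3 days and 11536 to 58974 CPM at 14 days, with no marker at 0 in any library. Most of this sum came from COL1A1, COL1A2 and COL3A1, with 22460, 36150 and 35660 CPM in TL3h replicate 1. Of the other markers, only LUM lay above every control in every TL3h library. PDGFRA stood at 66.6 to 310 CPM in control and 132 to 243 CPM at 3 hours. The ratios below are therefore mainly to these collagen genes. SPARC ranged 45.6-fold over the 12 libraries, and 3.73-fold when taken per 1000 CPM of fibroblast markers, from 71.9 to 268. POSTN ranged 133-fold, and 5.66-fold on that ratio, from 7.52 to 42.6. In neither gene did the ratio separate an operated group from control, except that POSTN stood at 42.6 and 41.0 in TL14d replicates 2 and 3 against 8.75 to 23.9 in control.

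For the other 8 genes the ratio ranged at least 22.0-fold over the 12 libraries. THBS2 ranged 16-fold in level and 22.0-fold in ratio, with 1.71 to 3.98 per 1000 CPM in control, 2.16 to 3.93 at 3 hours and 10.4 to 37.5 at 3 days. FN1 held a ratio of 13.0 to 18.8 in control and 17.7 to 20.5 at 3 hours, and 100.5 to 1063 at 3 days. TNC ranged 4560-fold in level and 7340-fold in ratio, from 0.0274 to 0.0390 in control to 14.0 to 74.8 at 3 days, and THBS1 stood at 0.216 to 0.717 in control and 27.0 to 35.8 at 3 hours. The ratio was formed after the values were seen and was not tested, and the part of fibroblast content in these levels was not tested either.

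**Figure D5:**
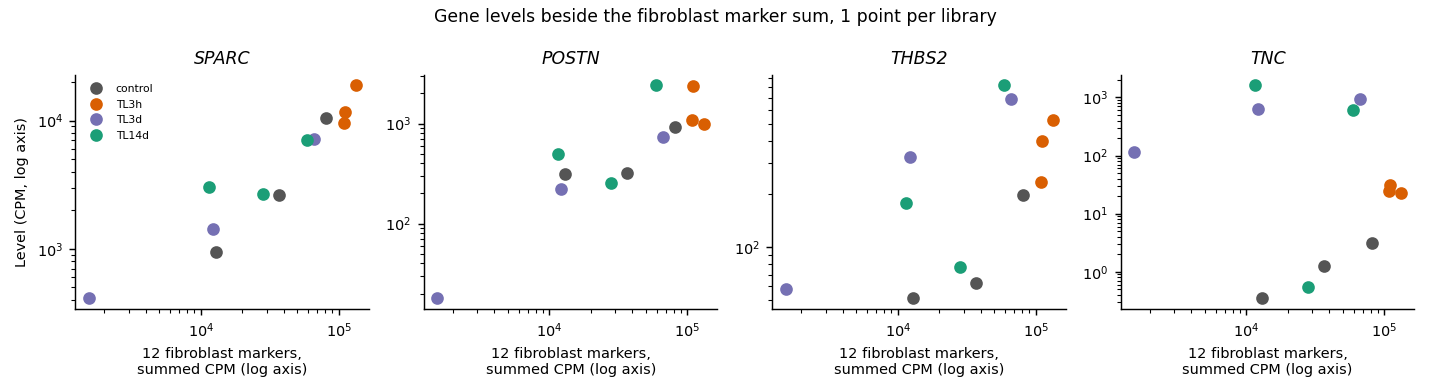
Level of SPARC, POSTN, THBS2 and TNC against the summed level of 12 fibroblast markers, both in CPM on log axes, with 1 point per library coloured by group. SPARC rises with the marker sum within control, TL3h and TL3d, and its ratio spans 3.73-fold, whereas TNC spans 7340-fold in ratio. Within TL14d, SPARC stood at 3053 CPM in replicate 2 (sum 11536 CPM) and at 2678 CPM in replicate 1 (sum 28093 CPM).

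The gene whose pattern over the 12 libraries was most like each of the 10 was found by the root mean square difference of centred log2 CPM among 13252 genes, which describes likeness only. For SPARC these were ADAMTS2 (difference 0.40), PCOLCE (0.41) and FAP (0.44), for POSTN COL14A1 (0.60), NEGR1 (0.62) and FNDC1 (0.63), and for THBS2 COL5A2 (0.49), TMEM200B (0.51) and a gene described as serpin H1 (0.54). For FN1 they were NRP2 (0.56), MYL9 (0.68) and BAMBI (0.70), and for CTHRC1 ACTA2 (0.74), COL12A1 (0.82) and P4HA3 (0.92). TNC lay nearest MMP9 (1.46), PMEPA1 (1.52) and MMP12 (1.59), and THBS1 nearest TNFAIP6 (1.20), CTSE (1.46) and CLEC5A (1.48). CTGF lay nearest FZD7 (0.53), ACSL3 (0.55) and PDLIM4 (0.55), and CYR61 nearest CLEC4A (0.77), S1PR3 (0.79) and MTHFD2 (0.88). The closest matches were those of SPP1, with TRIM2 (0.29), ISPD (0.30) and NINL (0.34). Among the 10 genes the most alike pair was POSTN and SPARC (0.87), and the least alike was TNC and POSTN (4.34).

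Counts in the lists of related genes are set beside the shares of all genes called against control, which were 45.4% at 3 hours, 17.6% at 3 days and 0% at 14 days. These shares without control replicate 3 and TL14d replicate 1 together were 50.3%, 25.6% and 6.64%. Both libraries stood out in these same data, TL14d replicate 1 by its likeness to control and control replicate 3 by its high marker sums. Leaving out such libraries can by itself widen differences from control, so the counts without them are not independent support. Of 19 other matricellular genes tested, 1 rose and 1 fell at 3 hours (10.5% called), 1 rose and 1 fell at 3 days (10.5%), and none was called at 14 days. The median log2 fold changes were 0.88, -0.25 and 0.29. TGFBI, a collagen-binding protein abundant in the cornea, fell by 1.78 ± 0.46 on the log2 scale at 3 hours (adjusted p = 0.0103), from 1708 to 2538 CPM in control to 510.2 to 634 CPM. SPOCK1, a proteoglycan related to SPARC, fell by 3.10 ± 0.59 on the log2 scale at 3 days (adjusted p = 0.0138). LGALS3 (galectin 3) had log2 fold changes of 0.79 ± 0.32 and -0.57 ± 0.32 at 3 hours and 3 days that did not pass (adjusted p = 0.0662 and 0.213). Without control replicate 3 and TL14d replicate 1 together, 3 rose and 1 fell at each of the 3 time points, and the median at 14 days was 1.58.

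Of 23 integrins and other receptors tested, 8 rose and 2 fell at 3 hours (43.5% called, near the 45.4% of all genes), 5 rose at 3 days (21.7%) and none was called at 14 days, with median log2 fold changes of 0.55, 0.53 and 0.12. ITGA5, the fibronectin receptor chain, stood at 20.7, 28.6 and 42.2 CPM in control and at 176, 425 and 343 CPM at 3 hours, and it rose on the log2 scale by 3.37 at 3 hours (adjusted p = 0.00277) and by 2.72 at 3 days (adjusted p = 0.0242). CD44, a receptor for hyaluronan and osteopontin, rose on the log2 scale at 3 hours by 2.25 ± 0.42 (adjusted p = 0.00188) and at 3 days by 1.74 ± 0.42 (adjusted p = 0.0229). SDC4 (syndecan 4), a co-receptor for fibronectin, rose on the log2 scale at 3 hours by 2.39 ± 0.38 (adjusted p = 0.000765), and ITGA2 and ITGA6, chains of collagen and laminin receptors, rose by 3.07 ± 0.54 (adjusted p = 0.00128) and 2.90 ± 0.53 (adjusted p = 0.00166). ITGB5 and ITGB8 fell at 3 hours, by 0.84 (adjusted p = 0.00259) and 2.09 (adjusted p = 0.00190) on the log2 scale. ITGA5, ITGB5 and ITGB8 are named here after their values were seen. With control replicate 3 and TL14d replicate 1 left out, 10 rose and 3 fell at 3 hours, 8 rose and 1 fell at 3 days, and 5 rose at 14 days, with a median of 0.50.

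Of 13 proteases known to cut these proteins, 8 rose at 3 hours (61.5%), 6 rose at 3 days (46.2%) and none was called at 14 days, and none fell. Their median log2 fold changes were 4, 2.50 and 1.28. ADAMTS4, an aggrecan-cutting protease, stood at 0.807, 2.93 and 3.74 CPM in control and at 215, 465.5 and 147 CPM at 3 hours, and it rose by 6.79 ± 0.91 on the log2 scale (adjusted p = 0.000299). PLAT, the tissue plasminogen activator, rose on the log2 scale by 5.63 ± 1.01 at 3 hours (adjusted p = 0.00144) and 3.43 ± 0.91 at 3 days (adjusted p = 0.0313). MMP1, a collagenase, rose on the log2 scale by 5.08 ± 1.01 at 3 hours (adjusted p = 0.00256) and 4.98 ± 1.003 at 3 days (adjusted p = 0.0155). MMP3, stromelysin, held at most 1 count in any control library and stood at 3.07 to 6.47 CPM at 3 hours and 10.1 to 41.9 CPM at 3 days, and it passed the test at both times (adjusted p = 0.00449 and 0.0114). Leaving out the same 2 libraries, 9 proteases rose at 3 hours, 8 at 3 days and 6 at 14 days, with a median of 2.48 at 14 days.

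Of 19 genes of the YAP and SRF pathways, which act on CTGF and CYR61, 9 rose and 5 fell at 3 hours (73.7%), 3 rose at 3 days (15.8%) and none was called at 14 days, with median log2 fold changes of 0.63, 0.16 and 0.44. SRF, the transcription factor itself, rose from 24.9, 24.9 and 29.4 CPM in control to 141, 85.1 and 114 CPM at 3 hours (log2 fold change 2.10 ± 0.21, adjusted p = 7.31e-05). On the log2 scale YAP1 rose by 1.09 ± 0.16 (adjusted p = 0.000538), while MKL2, a coactivator of SRF, fell by 1.07 ± 0.18 (adjusted p = 0.00107) and AMOTL1, which holds YAP outside the nucleus, fell by 1.99 ± 0.34 (adjusted p = 0.00120). Of these 4 genes none was called at 3 or 14 days. When the same 2 libraries were left out, 9 of the 19 rose and 5 fell at 3 hours, 7 rose at 3 days and 5 rose at 14 days, with a median of 0.45 at 14 days.

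Of 12 TGF-beta pathway genes, 3 rose at 3 hours (25%), 1 rose at 3 days (8.33%) and none was called at 14 days, with median log2 fold changes of 0.57, 0.79 and 0.99. SKIL, a repressor of SMAD signalling that SMADs also induce, rose on the log2 scale at 3 hours by 1.95 ± 0.36 (adjusted p = 0.00177). SMAD7, an inhibitor of the pathway, rose on the log2 scale by 1.86 ± 0.63 (adjusted p = 0.0337) and SMAD4, the common SMAD, by 0.38 ± 0.12 (adjusted p = 0.0219). TGFB1, the ligand, rose on the log2 scale at 3 days by 1.78 ± 0.54 (adjusted p = 0.0474), from 5.03 to 10.4 CPM in control to 21.8 to 31.2 CPM. In the fit without those 2 libraries 6 of the 12 rose at 3 hours, 4 at 3 days and 4 at 14 days, with a median of 1.78 at 14 days.

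Markers of other cell types that the tissue could hold moved as well, and their part in the levels of the 10 genes was not tested. Their counts stand beside the same shares of all genes called, 45.4% at 3 hours and 17.6% at 3 days. Of 12 fibroblast markers none was called against control at any time, and 3 of 12 fell from TL3h to TL3d, where 37.3% of all genes were called and 19.0% fell, while without control replicate 3 and TL14d replicate 1 together 1 rose at 3 hours. Of 11 macrophage markers 3 rose at 3 hours (27.3%) and 5 at 3 days (45.5%), among them CD68, which rose on the log2 scale by 1.98 ± 0.42 (adjusted p = 0.00357) and 2.78 ± 0.43 (adjusted p = 0.00971). The macrophage sum was 263 to 1615 CPM in control, 1837 to 3433 CPM at 3 hours, 2455 to 4123 CPM at 3 days and 385 to 1457 CPM at 14 days, with the highest control sum in control replicate 3. Much of it was CTSK, at 118, 188 and 791.5 CPM in control and 991, 2261 and 1319 CPM at 3 hours. Without both libraries 9 of the 11 rose at 3 hours, 9 at 3 days and 2 at 14 days. Of 9 myofibroblast and smooth muscle markers ACTG2 rose at 3 days (log2 fold change 4.37 ± 1.27, adjusted p = 0.0418), and their sum was 116 to 262 CPM in control, 336 to 429 CPM at 3 hours, 262 to 1731 CPM at 3 days and 146, 1121 and 1823 CPM at 14 days. Without both libraries 2 of the 9 rose at 3 hours, 4 at 3 days and 2 at 14 days. Of 10 endothelial markers 3 rose at 3 hours, with PECAM1 at a log2 fold change of 3.68 ± 0.97 (adjusted p = 0.0109), and without both libraries 5 rose at 3 hours and 1 at 3 days.

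Of 4 platelet markers tested, PPBP and GP5 rose, P2RY12 fell and ITGA2B was not called at 3 hours (75% called), and 1 rose at 3 days (25%). GP5 was low, at 0.150 to 0.326 CPM in control and 2.085 to 5.145 CPM at 3 hours. GP9, GP1BA and TREML1 did not pass the filter on low counts. PPBP, a platelet chemokine, held at most 2 counts in any control library. It stood at 16.2 to 34.2 CPM at 3 hours, 21.3 to 55.1 CPM at 3 days, and 0, 287 and 6.999 CPM at 14 days. With control replicate 3 and TL14d replicate 1 both left out, 2 platelet markers rose at 3 hours, 1 at 3 days and 1 at 14 days, and none fell. Of 9 conjunctival epithelial markers 1 rose (EPCAM) and 1 fell (PAX6) at 3 hours, and 1 rose (KRT5) and 1 fell (KRT15) at 3 days, and without both libraries 1 rose and 2 fell at 3 hours, 1 rose and 3 fell at 3 days, and 1 fell at 14 days. Of 4 goblet cell markers FCGBP fell at 3 hours, by 2.20 ± 0.63 on the log2 scale (adjusted p = 0.0162). AGR2 of the same list stood at 50.8, 71.5 and 212 CPM in control and at 659, 135 and 466 CPM at 3 hours, a log2 fold change of 1.92 ± 0.85 that did not pass (adjusted p = 0.0931), and without both libraries 1 goblet cell marker rose and 1 fell at 3 hours. Of 7 corneal and scleral markers KRT3 alone was called at 3 days and rose, by 2.24 ± 0.61 on the log2 scale (adjusted p = 0.0346). The median log2 fold change of the 7 at 3 days was -1.68, with OGN at -4.21 ± 1.4999 (adjusted p = 0.0756), CHAD at -3.28 ± 1.30 (adjusted p = 0.0998) and PRELP at -1.89 ± 1.02 (adjusted p = 0.205). From TL3h to TL3d KRT3 rose and 3 of the 7 fell (OGN, CHAD and CHRDL1, the last named after its value was seen), against the same 37.3% of all genes called and 19.0% lower. The sum of the 7 was 551 to 4147 CPM in control, 2682 to 6770 CPM at 3 hours, 329 to 924 CPM at 3 days and 949 to 1369 CPM at 14 days. Without both libraries 1 of the 7 fell at 3 hours, 1 rose at 3 days and 1 rose at 14 days, and the median at 3 days was -0.42. Of 5 skeletal muscle markers tested none was called against control, and without both libraries 1 fell at 3 hours. From TL3h to TL3d 1 of the 5 rose (20%), with both libraries or without them, where 18.4% of all genes rose in the full fit. The sum of the 8 skeletal muscle markers in the table, tested or not, was 505 CPM in control replicate 2 and 595 CPM in TL3d replicate 3, against at most 12.1 CPM in the other libraries.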

How the data were processed

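The authors sequenced 150 bp paired-end reads from stranded mRNA libraries of 12 conjunctiva samples and mapped them with STAR (version 2.6.0c, per the submitters' processing notes) to the assembly OryCun2.0. Values for genes and for transcripts were made in GeneData Profiler Genome. Estimated counts were deposited by the authors, not divided by library size, of which 23.4% were fractions in the gene table, and FPKM, divided by length and depth. How reads with several placements were divided, and how strand was used, is not given in the sources used here. Positions are those of the authors' table.

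These counts were rounded to integers. A filter on low counts (filterByExpr of edgeR, minimum count 10, minimum total 15) kept 14835 of 20566 genes and 26082 of 38710 transcripts. All 12 libraries, placed in groups by their labels, entered 1 quasi-likelihood fit in edgeR 4.0.16 under R 4.3.3 with TMM scaling and no covariate, and 5 comparisons were tested with Benjamini-Hochberg adjustment and a threshold of 0.05. Fold changes used a prior count of 0.125, and SE is the log2 fold change divided by the root of the test statistic. The fit was tested on simulated data. Totals were 27111276 to 38591374 counts per library, and floors of 3 counts, which a count of 0 allows at 95% confidence, cover counting error only.

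The 10 genes, the gene lists and the tests were chosen with earlier results of these data known. The text names all 10 genes, the 3 genes most like each in pattern (log2 CPM with a prior count of 2, genes of at least 1 CPM on average), up to 4 genes per list by smallest adjusted p (1 gene this names is not reported here), and, for genes with several transcripts, those with at least 10% of their gene's counts in a library. Alternatives were DESeq2 1.42.0 (size factors or Wald test), library size alone, no filter, edgeR's exact test, only the 6 libraries compared, a replicate block, each library left out, and control replicate 3 with TL14d replicate 1 left out. The sources do not say what a replicate number shares, and of 18 same-numbered pairs 8, not all, had correlated deviations over 0.1 (-0.171 to 0.502), so the numbers were not taken to pair samples. Per the labels each library is a separate sample, and no library repeated another within sampling noise. No sequence is shown, since none of these genes was given one in the references used here.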

Additional observations from a re-analysis of the deposited data

How the results depend on the processing

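Of 1000 log2 fold changes computed for the 10 genes under the alternatives, 975 kept their direction, 61 passed the threshold only with the alternative and 10 only without it; no called value changed direction. The number of the 10 genes called at 3 hours was 4, and 2 to 5 with 1 library left out (2 without TL3h replicate 3) while 5280 to 7271 of all genes were called, and at 3 days 1, and 0 to 4 (4 without control replicate 3, 3 without TL14d replicate 1, and 0 without control replicate 1, control replicate 2, TL3d replicate 1 or TL3d replicate 2) beside 359 to 3778 of all genes. At 14 days it was 0, and 0 to 4 (4 without TL14d replicate 1) beside 0 to 716, from TL3h to TL3d 0, and 0 to 2 (2 without TL14d replicate 1) beside 3954 to 6231, and from TL3d to TL14d 0, and 0 to 1 (1 without control replicate 3) beside 0 to 584. Without control replicate 3 and TL14d replicate 1 together the counts were 6 at 3 hours (TNC and FN1 added), 5 at 3 days, 4 at 14 days and 3 from TL3h to TL3d, where 50.3, 25.6, 6.64 and 43.3% of all genes were called. DESeq2's Wald test called 5, 5, 5, 3 and 1 at 3 hours, at 3 days, at 14 days, from TL3h to TL3d and from TL3d to TL14d, and edgeR's exact test 5, 2, 3, 1 and 1. Library size alone gave 2 at 3 days (16.9% of all genes) and 1 from TL3h to TL3d (42.5%), and the 6 libraries compared alone gave 2 (22.6%) and 2 (40.9%), and 6 at 3 hours (TNC and THBS2 added, 45.5%). With the replicate number as a block, 7 were called at 3 hours (TNC, THBS2 and SPARC added, adjusted p = 0.049995, 0.0137 and 0.0267), 2 at 3 days (THBS1 added, 0.0369) and 2 from TL3h to TL3d (POSTN and SPARC, 0.0184 and 0.0120), where 46.8, 18.3 and 39.3% of all genes were called. The labels do not say what replicates of 1 number share, and a library's deviations were closest to those of its own number in 17 of 36 comparisons. Of transcripts, 4 were called at 3 hours, 1 at 3 days and 0 at 14 days, 8 and 3 under the block at the first times (7290 and 1042 of all transcripts), and 1 to 11, 0 to 18 and 0 to 20 with 1 library left out (4903 to 8045, 0 to 2920 and 0 to 426 of all), the highest each time without TL14d replicate 1.

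Changes of direction were all in values that did not pass. Without control replicate 3 and TL14d replicate 1 the log2 fold change of POSTN at 3 days was 0.0193, that of SPARC 0.72, and that of SPARC at 14 days 1.49. Under the block SPARC at 14 days was 0.39, and from TL3d to TL14d THBS1 was -0.10 and THBS2 -0.0885. With library size alone THBS2 from TL3h to TL3d was 0.35. With 1 library left out, POSTN at 3 days ran from -2.12 to 0.0195 and at 14 days from -0.48 to 1.72, SPARC at these times from -2.36 to 0.72 and from -0.72 to 1.24, and THBS2 from TL3h to TL3d from -1.01 to 0.40. From TL3d to TL14d the ranges were -0.87 to 0.999 for TNC, -0.26 to 0.98 for THBS1, -1.49 to 0.91 for THBS2, -0.0607 to 2.22 for SPARC and -1.59 to 3.48 for CTHRC1. The cause of these shifts was not tested. Control counts of TNC were 15 to 126 per library, so its fold changes against control rest on few reads.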

Other observations

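Among the other matricellular genes, 4 with high levels in TL14d replicates 2 and 3 are given here as values, chosen after those values were seen, and none passed the test against control at 14 days. IBSP, bone sialoprotein, which is related to osteopontin, held no counts in any library of control or TL3h. It stood at 0.200, 0.400 and 0.370 CPM at 3 days, and at 0, 31.6 and 18.5 CPM at 14 days. THBS4, another thrombospondin, stood at 1.30, 5.10 and 25.6 CPM in control and at 4.57, 75.8 and 1244 CPM at 14 days, so that TL14d replicate 3 alone carried its highest level. TNN, tenascin-N, stood at 0.308, 1.25 and 0.853 CPM in control and at 0.841, 29.3 and 67.6 CPM at 14 days. WISP1, a CCN protein like CTGF, stood at 0.261, 0.275 and 1.81 CPM in control, 9.99, 22.9 and 13.5 CPM at 3 hours, 0.450, 12.4 and 56.3 CPM at 3 days, and 0.639, 46.5 and 86.7 CPM at 14 days. In all 4 genes TL14d replicate 1 was the lowest library of its group and lay within the control range.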
